A study of Mus musculus with 6 samples.

Results

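The contractile genes of the early skeletal myotome were followed through 9 genes that had been chosen by name: Acta1, Actc1, Tnnt1, Tnnc1, Tnni1, Myl1, Myl4, Des and Chrna1. All 9 were on the array, with 11 probe sets annotated to exactly 1 of these symbols, out of 12393 genes and 22626 probe sets measured. The choice was made with the genotype differences of Tnnt1, Acta1 and Actc1 in these same arrays known, so every difference between the genotypes given below for the 9 genes is a description and carries no test.

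The tissue was the somite-level part of mouse embryos at 9.5 days post coitum, cut at the otic placode in front and behind the newest somite, without heart and endoderm. Wild-type embryos (Dll3+/+) were compared with embryos homozygous for the Dll3 tm1Rbe allele, also written Dll3neo/neo, and the strain of both groups is labelled c57bl/6. The Notch ligand Dll3 is required for somites to form at regular intervals, and the allele is present in every cell of the embryo. Each genotype was sampled as 3 pools of embryos, and every pool had its own Affymetrix MOE430A array. How many embryos went into a pool was not stated. The probe set of Dll3 read 0.96, 1.004 and 1.028 in wild-type pools 1, 2 and 3 and 0.996, 1.013 and 0.941 in mutant pools 1, 2 and 3, and since its position relative to the inserted neo sequence was not stated, these values do not check the labels. Tissue of this level includes neural tube, blood, vessels and ectoderm beside somites, and in such bulk tissue more cells of a type and more RNA per cell cannot be told apart.

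The myotome is the layer of the somite in which the first skeletal muscle cells of the embryo form. Basic helix-loop-helix regulators (Myf5, Myod1, Myf6 and Myog) turn on the genes of the sarcomere there. In the sarcomere, myosin pulls on actin filaments, and the troponin complex on those filaments gates the pull by calcium. Embryonic muscle starts with isoforms that it shares with the heart or with slow fibres, so Actc1, Tnnc1, Tnni1, Myl4 and Des are genes of cardiac as well as of skeletal muscle.

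The upstream sequences of 4 of the genes are shown because Acta1, Actc1 and Tnnt1 had the largest genotype differences of the 9, while Chrna1, a gene classically known for E-boxes close to its start, had almost none. Each is the 250 bases before the annotated start of transcription, read 5′ to 3′ on the strand of the gene, from RefSeq in build GRCm38.p6: Acta1 at chr8:123894776-123895025, Actc1 at chr2:114052876-114053125, Tnnt1 at chr7:4515976-4516225 and Chrna1 at chr2:73580339-73580588, all on the minus strand. Capitals mark every E-box (CANNTG, the core that the myogenic regulators bind, which reads the same on both strands) and every CArG box (the serum response factor site). The marked runs do not overlap each other.
Acta1: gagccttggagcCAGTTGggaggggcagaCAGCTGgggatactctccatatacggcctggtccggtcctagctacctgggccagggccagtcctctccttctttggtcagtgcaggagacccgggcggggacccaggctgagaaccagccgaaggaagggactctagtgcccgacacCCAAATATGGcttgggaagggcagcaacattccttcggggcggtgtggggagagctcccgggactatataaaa
Actc1: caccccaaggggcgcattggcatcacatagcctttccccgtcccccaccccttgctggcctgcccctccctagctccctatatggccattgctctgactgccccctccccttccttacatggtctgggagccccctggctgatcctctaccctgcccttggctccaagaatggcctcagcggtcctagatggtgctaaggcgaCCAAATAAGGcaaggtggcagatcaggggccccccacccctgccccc
Tnnt1: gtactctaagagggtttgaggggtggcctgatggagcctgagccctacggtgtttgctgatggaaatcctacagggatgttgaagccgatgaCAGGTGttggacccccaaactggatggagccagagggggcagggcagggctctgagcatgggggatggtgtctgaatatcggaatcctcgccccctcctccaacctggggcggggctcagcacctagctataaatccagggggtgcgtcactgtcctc
Chrna1: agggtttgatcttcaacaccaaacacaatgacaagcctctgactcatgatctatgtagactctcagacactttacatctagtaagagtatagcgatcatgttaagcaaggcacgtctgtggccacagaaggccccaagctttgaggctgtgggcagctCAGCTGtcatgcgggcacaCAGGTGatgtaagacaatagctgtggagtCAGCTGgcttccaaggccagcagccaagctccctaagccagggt
All 9 genes had an entry, with 10 windows in all, because Tnni1 has 2 overlapping ones. At least 1 CANNTG was found in 8 of the 10 windows, beside 66.2% of all 32851 promoter windows of this length, and the windows of Actc1 and Myl4 held none. The form CAGCTG was found in 6 of the 10 windows, of 5 genes (Myl1, Des, Tnni1, Chrna1 and Acta1), beside 13.0% of all windows. Chrna1 held 3 E-boxes, which began 92, 73 and 44 bases before the start, and a window of Tnni1 held 4. Windows with 3 or more made up 12.2% of all windows. A CArG box was found in the windows of the 2 actin genes, 73 bases before the start in Acta1 and 47 in Actc1, beside 1.47% of all windows. The MEF2 site was found in none of the 10, beside 2.92% of all windows. These are matches of letters on both strands, and binding was not measured.

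Each value in the deposited table is a linear ratio to a reference that belongs to that probe set, and the median over the 6 pools was 1 for all 11 member probe sets. Pools can therefore be compared for a gene, while levels cannot be compared between genes. Over all probe sets limma called none at an adjusted p under 0.05 (0.0% of 22626), and 595 (2.63%) had an unadjusted p under 0.05. The members' differences below are on the log2 scale, mutant minus wild-type, with the standard error (SE) and 95% interval of the fit over all genes.

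The largest differences among the members were those of the thin filament genes Acta1, Tnnt1 and Actc1. Acta1, the skeletal alpha-actin, had ratios of 0.96, 0.926 and 0.933 in wild-type pools 1, 2 and 3 and of 1.3, 1.72 and 1.04 in mutant pools 1, 2 and 3. The wild-type pools lay close together, every mutant pool lay above them, and mutant pool 2 was far above the other mutant pools. Wild-type pools averaged 0.94 ± 0.018 (SD, n = 3) and mutant pools 1.353 ± 0.343 (SD, n = 3), a fold of 1.41 and a log2 difference of 0.50 (SE 0.148, interval 0.17 to 0.83).

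Actc1, the cardiac alpha-actin that embryonic skeletal muscle also uses, had ratios of 1.006, 0.92 and 0.832 in the wild-type and 1.082, 1.571 and 0.994 in the mutant pools. The groups overlapped, since mutant pool 3 lay just below wild-type pool 1, and mutant pool 2 was again the highest. On the log2 scale Actc1 differed by 0.38 (SE 0.152, interval 0.04 to 0.72). The coding sequences of Acta1 and Actc1 are very alike, and whether RNA of the one binds probes of the other was not tested.

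Among the troponins, which form the calcium switch of the thin filament, Tnnt1 stood out. This slow skeletal troponin T anchors the complex to tropomyosin. Its ratios were 0.912, 0.832 and 0.93 in the wild-type and 1.07, 1.378 and 1.243 in the mutant pools, so the groups did not overlap and mutant pools 2 and 3 were both high. On the log2 scale it differed by 0.46 (SE 0.1, interval 0.24 to 0.68), a fold of 1.38.

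Tnnc1, the calcium-binding troponin C of slow and cardiac muscle, had ratios of 0.934, 0.992 and 1.008 in the wild-type and 0.967, 1.339 and 1.104 in the mutant pools. Mutant pools 2 and 3 lay above all wild-type pools and mutant pool 1 lay inside their range. Its difference was 0.20 on the log2 scale (SE 0.111, interval -0.04 to 0.45). Tnni1, the inhibitory subunit of slow fibres, had ratios of 1.111, 0.944 and 0.931 in the wild-type and 1.005, 1.211 and 0.995 in the mutant pools. Here the groups overlapped through wild-type pool 1, with a log2 difference of 0.10 (SE 0.103, interval -0.13 to 0.33).

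The myosin light chains brace the lever arm of the motor. Myl1, the light chain of fast muscle, had ratios of 1.07, 0.992 and 0.708 in the wild-type and 0.969, 1.183 and 1.008 in the mutant pools. Its log2 difference of 0.21 (SE 0.144, interval -0.11 to 0.53) came with a low value in wild-type pool 3 alone: without that pool it was 0.03. Myl4, the embryonic and atrial light chain, was read by 2 probe sets that disagreed in sign. The one had ratios of 1.048, 0.979 and 0.867 in the wild-type and 1.005, 1.099 and 0.995 in the mutant pools, a log2 difference of 0.10. The other had ratios of 1.241, 1.064 and 0.883 in the wild-type and 1.225, 0.936 and 0.838 in the mutant pools, a log2 difference of -0.09. In that second probe set pool 1 was the highest and pool 3 the lowest of each genotype, and their mean gave the gene a log2 difference of 0.00 (0.004, SE 0.11, interval -0.24 to 0.25).

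The genes outside the sarcomere's motor and switch, Des and Chrna1, had differences near 0, as did the light chain gene Myl4. Des, the muscle intermediate filament desmin that ties neighbouring myofibrils together, had ratios of 1.004, 0.996 and 1.053 in the wild-type and 0.844, 0.977 and 1.016 in the mutant pools, by the first of its probe sets. By the second they were 1.116, 1.019 and 0.898 in the wild-type and 1.115, 0.981 and 0.953 in the mutant pools. The groups overlapped in both, and the gene differed by -0.05 on the log2 scale (SE 0.072, interval -0.21 to 0.11). Chrna1, the alpha subunit of the muscle acetylcholine receptor, had ratios of 1.005, 0.995 and 0.935 in the wild-type and 1.018, 1.031 and 0.831 in the mutant pools. Its lowest value lay in mutant pool 3, with a log2 difference of -0.03 (SE 0.095, interval -0.24 to 0.18).

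**Figure D1:**
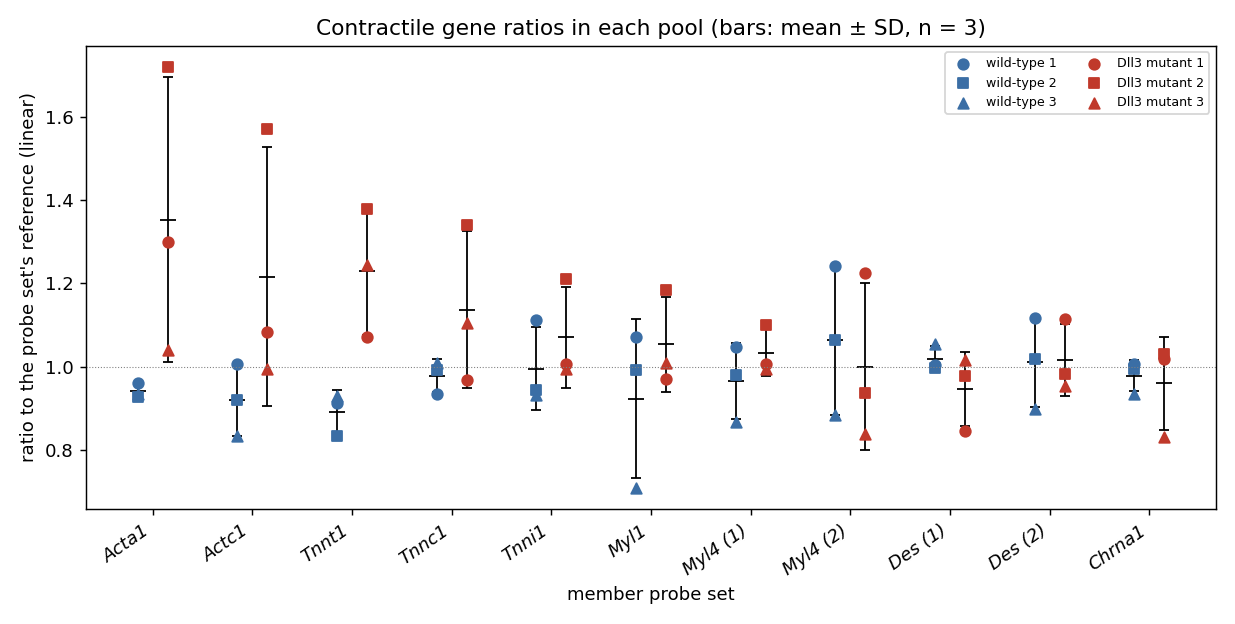
Linear ratio of each member probe set (horizontal axis, with 2 probe sets each for Myl4 and Des) in the 3 wild-type (blue) and 3 mutant (red) pools, marker shapes giving the pool number and bars the mean ± SD (n = 3). The mutant points of Acta1 (1.04 to 1.72) and Tnnt1 (1.07 to 1.378) lie above all wild-type points, and the groups overlap in the other 9 probe sets.

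By gene, 7 of the 9 differences were positive and 2 negative, beside 51.9% of all 12393 genes that were higher. The median log2 difference of the 9 was 0.20, beside 0.003 over all genes, and 5 of the 9 were above 0.2, beside 1.61% of all genes. The groups did not overlap in 2 of the 9, both higher in the mutant pools, beside 3.98% of all genes in that direction. Nothing is read from these counts, because the same contrast was in view when the genes were chosen. The direction of the 7 rests on small values at its lower end: with array weights, quantile normalization or arrays centred on their median 6 of 9 were higher.

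The pools of a genotype were compared next, as deviations of each pool from the mean of its own genotype. The differences of Acta1, Actc1 and Tnnt1 known at the choice of genes rest in part on mutant pool 2, so this comparison is not independent of that choice. In mutant pool 2 all 9 genes lay above the mean of the mutant pools, beside 50.8% of all genes. With each array centred on its median, 8 of the 9 did, and Des, which lay 0.002 above the mean without centring, did not. Myl4 lay only 0.007 above the mutant mean without centring. Myl4 and Des are means of 2 probe sets, and in the second probe set of each mutant pool 2 lay below the mutant mean. The ratios were 0.936 beside a mean of 1.0 for Myl4 and 0.981 beside 1.016 for Des. In mutant pools 1 and 3 only 2 of the 9 genes lay above the mutant mean in each, beside 45.4% and 54.8% of all genes. The mean log2 ratio of the 9 genes was 0.07 in mutant pool 1, 0.32 in mutant pool 2 and 0.01 in mutant pool 3.

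Among the wild-type pools the genes also leaned together, over a narrower range. In wild-type pool 1, 8 of 9 genes lay above the wild-type mean (51.5% of all genes), the exception being Tnnc1. In wild-type pool 3, 2 of 9 did (50.1% of all genes). The mean log2 ratio of the 9 was 0.03, -0.06 and -0.15 in wild-type pools 1, 2 and 3. Mutant pool 2 was the highest of the 6 pools for 7 of the 9 genes, beside 13.8% of all genes, and wild-type pool 3 the lowest for 4 of the 9, beside 18.9%. The 9 genes share the arrays, and the pools number only 3 per genotype, so these shares describe the pools and are not a test.

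**Figure D2:**
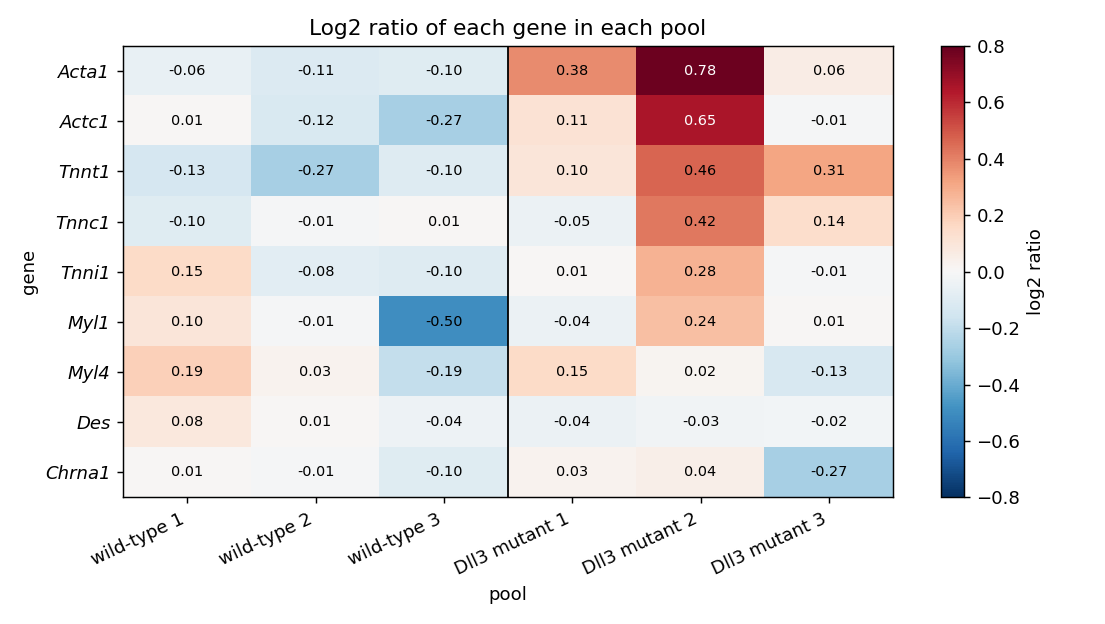
Log2 ratio of each of the 9 genes (rows) in each of the 6 pools (columns), with Myl4 and Des as the mean of 2 probe sets, the colour scale running from -0.8 to 0.8 and the black line parting the genotypes. The column of mutant pool 2 holds the highest value of 7 of the 9 rows, up to 0.78 for Acta1, and Myl4 and Des are highest in wild-type pool 1.

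Mutant pool 2 carried much of the difference of the actins. Without it the log2 difference was 0.31 for Acta1, 0.18 for Actc1, 0.08 for Tnnc1 and 0.01 for Tnni1, while that of Tnnt1 was 0.37. The median of the 9 genes was then 0.08, and 7 were still above 0. Without wild-type pool 3 the median was 0.06.

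The pools also differed in sex-linked transcripts, read by a score in which the mean of the Y-linked genes Eif2s3y, Kdm5d and Uty is taken from Xist. The score was -0.09, -1.48 and -1.73 in wild-type pools 1 to 3 and 0.04, 0.81 and 0.73 in mutant pools 1 to 3. Mutant pool 2 was the highest and wild-type pool 3 the lowest, as for the mean of the 9 genes. Between these, wild-type pool 2, wild-type pool 1 and mutant pool 1 rose in the same order in both, and only mutant pool 3 was placed differently. Mutant pool 3 scored nearly as high as mutant pool 2, while its mean of the 9 genes was 0.01, below the 0.03 of wild-type pool 1. With the score as a covariate the median of the 9 genes was -0.05 and 4 of 9 were above 0. Acta1 was then at 0.41, Tnnt1 at 0.31 and Actc1 at 0.08, and Myl1 at -0.23. The score differs between the genotypes as well, and its part in the differences was not tested.

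**Figure D3:**
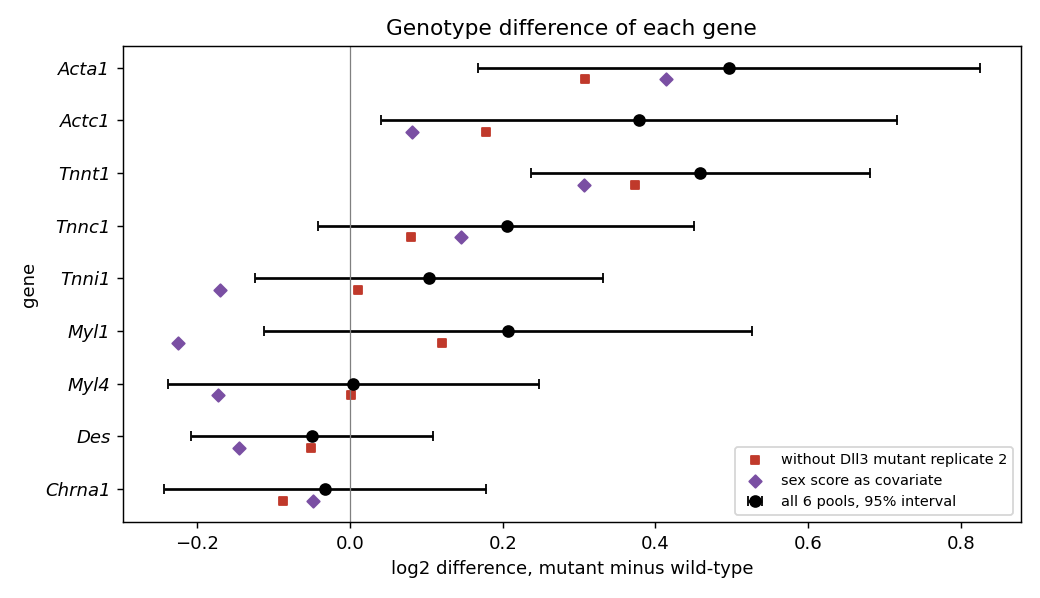
Log2 difference, mutant minus wild-type, of each gene (rows): black points with 95% intervals are from all 6 pools, red squares leave out mutant pool 2 and purple diamonds have the sex score as a covariate. Acta1, Actc1, Tnnt1 and Tnnc1 stay above 0 in all 3 fits, and Tnni1, Myl1 and Myl4 fall below 0 with the sex score (-0.17, -0.23 and -0.17).

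Other genes of muscle were described through lists, none of which contains a gene that passed limma's adjusted threshold over all 12393 genes (0.0% of genes called). The counts in each list stand beside 51.9% of all genes with a positive difference. For an unadjusted p under 0.05 in limma the share was 2.63% of all probe sets, and it was not taken over genes. The p of a listed gene came from the fit over genes, so the units differ. These lists, too, were chosen with earlier results of these data known, so their counts are a description and not a test. Of 54 further sarcomere and muscle fibre genes measured, 26 had positive and 28 negative differences, with a median of -0.004 beside 0.003 for all genes, and 1 had an unadjusted p under 0.05. The largest differences were those of Myh3, the embryonic myosin heavy chain, at 0.40 (SE 0.248), of Tnnc2, the fast troponin C, at 0.32 (SE 0.177), and of Myom2, an M-band protein gene, at -0.19 (SE 0.082). Myh3 had ratios of 0.949, 1.118 and 0.882 in the wild-type and 0.948, 2.136 and 1.051 in the mutant pools. Tnnc2 had ratios of 1.022, 0.946 and 0.919 in the wild-type and 0.978, 1.707 and 1.027 in the mutant pools. In both genes mutant pool 2 alone was high. The same pool was high for Mylpf, the fast regulatory light chain, at 1.709, where wild-type pool 1 was at 1.299 and the log2 difference was 0.07. Since ratios keep no level, which of the 54 genes were expressed in this tissue cannot be told, and the list's mean and median weigh all of them alike.

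Of 14 genes of the acetylcholine receptor and the muscle synapse, 9 had positive and 5 negative differences (median 0.02), and 1 had an unadjusted p under 0.05. Chrnb1, the beta subunit that pairs with Chrna1 in the receptor, had ratios of 0.984, 0.849 and 0.86 in the wild-type and 1.126, 1.016 and 1.102 in the mutant pools. Its groups did not overlap and its log2 difference was 0.27 (SE 0.085, adjusted p = 1.0 in limma). The delta subunit gene Chrnd was at -0.15 (SE 0.089) and Ache, which encodes the enzyme that clears acetylcholine, at 0.16 (SE 0.083). The subunits of the receptor thus had values of both signs.

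Of 23 myogenic regulators, 10 had positive and 13 negative differences (median -0.01), and 1 had an unadjusted p under 0.05. That gene was Myog, the regulator of terminal muscle differentiation, with ratios of 0.845, 0.938 and 0.92 in the wild-type and 1.083, 1.184 and 1.062 in the mutant pools. Its groups did not overlap, all mutant pools lay within a narrow range, and the log2 difference was 0.30 (SE 0.08, adjusted p = 1.0 in limma). Dmrt2 and Meox2, transcription factor genes of the dermomyotome and early somite, were both at -0.23 (SE 0.109 and 0.132). The determination factors Myf5 and Myod1 were at -0.18 (SE 0.114) and 0.01 (SE 0.09), and Myf6 at -0.08 (SE 0.1).

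Because the heart had been cut away and shares many of these isoforms, 25 cardiac markers were read beside the 9 genes, 4 of them also in the list of sarcomere genes. Of the 25, 11 had positive and 14 negative differences (median -0.02), and 3 had an unadjusted p under 0.05, beside 2.63% of all probe sets. Tnnt2, a troponin T of heart and embryonic skeletal muscle, was at 0.29 (0.295, SE 0.1), with ratios of 0.891, 0.923 and 0.98 in the wild-type and 1.003, 1.306 and 1.134 in the mutant pools, which did not overlap. The natriuretic peptide gene Nppb was at -0.20 (SE 0.078) and the connexin gene Gja5 at 0.18 (SE 0.078). The mean log2 ratio of the cardiac list was -0.05 in mutant pool 2, where that of the 9 genes was 0.32 and Tnnt2 had its highest ratio. Because ratios keep no level, these values do not measure heart tissue left in a pool, and its part was not tested.

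Smooth muscle markers were higher for 9 of 14 and lower for 5 (median 0.04), Des being in this list as well. Of these, 3 had an unadjusted p under 0.05, beside 2.63% of all probe sets. Ppp1r14a, an inhibitor of myosin phosphatase, was at -0.48 (SE 0.144), Tagln, an actin-binding protein gene, at 0.40 (SE 0.136) and Cnn1, which encodes calponin, at 0.30 (SE 0.11). Markers of other tissues in the dissected piece were also high in mutant pool 2. The mean log2 ratio of 19 neuronal markers was 0.22 in that pool, -0.14 in mutant pool 1 and -0.02 in mutant pool 3, and 10 of the 19 were higher and 9 lower by genotype (median 0.001, 1 with an unadjusted p under 0.05). Mnx1, a motor neuron gene, was at -0.33 (SE 0.122), the neurofilament gene Nefm at 0.24 (SE 0.235) and Mapt at -0.18 (SE 0.105). The mean of 14 primitive erythroid markers was 0.05, 0.18 and 0.01 in mutant pools 1, 2 and 3. By genotype 12 of the 14 were higher (median 0.12), beside 51.9% of all genes. An unadjusted p under 0.05 was reached by 5 of the 14, beside 2.63% of all probe sets. Hemgn was at 0.34 (SE 0.113), Alas2 at 0.29 (SE 0.14) and Slc4a1 at 0.28 (SE 0.095). From wild-type pool 1 to wild-type pool 3 the mean log2 ratio fell in other lists as well as in the 9 genes (0.027 to -0.154). It fell in the neuronal (0.096 to -0.067), erythroid (0.006 to -0.123), sarcomere (0.021 to -0.101) and cardiac lists (0.034 to -0.065). The smooth muscle (0.026 to -0.038) and synapse lists (-0.003 to -0.05) also fell, while the myogenic regulators rose (-0.044 to 0.028). A ratio keeps no level, so the summed level of such markers cannot be given, and the part of other tissues in the values of the 9 genes was not tested.

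**Figure D4:**
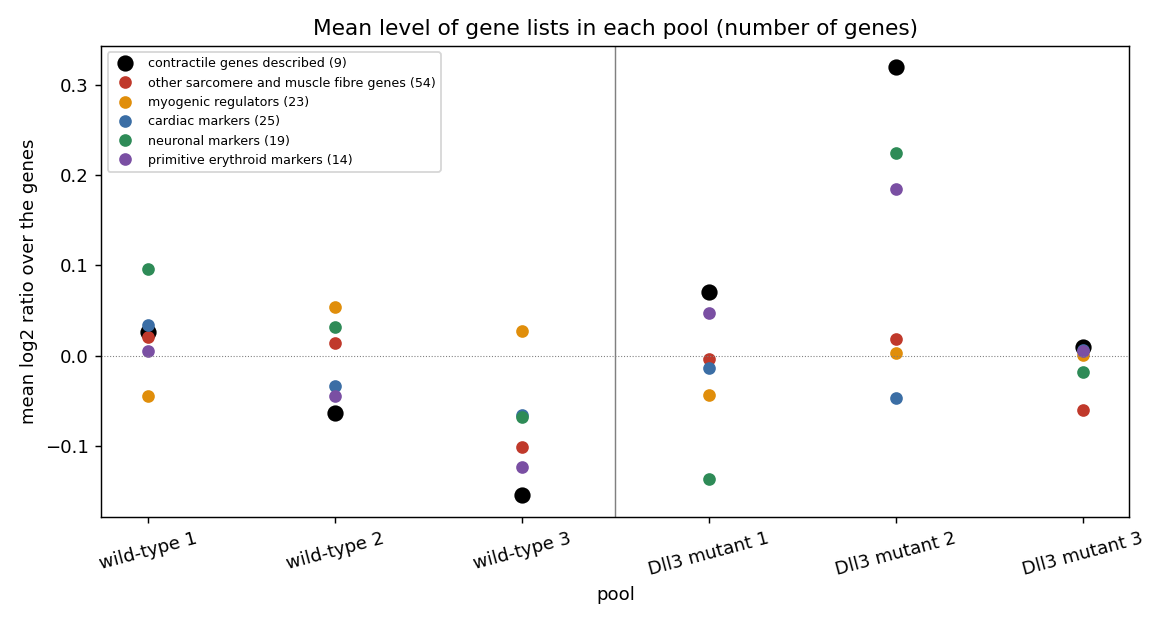
Mean log2 ratio over the genes of each list (vertical axis, number of genes in the legend) in each of the 6 pools, with no error bars. In mutant pool 2 the means of the 9 contractile genes (0.32), the neuronal (0.22) and the erythroid markers (0.18) were high. The means of the cardiac markers (-0.05), the myogenic regulators (0.003) and the other sarcomere genes (0.02) were not. Single genes of the sarcomere list (Myh3, Tnnc2 and Mylpf) were high in that pool, where the median of the list was -0.009. Which genes of a list were expressed in this tissue cannot be told from ratios.

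The genes most like the mean of the 9 over the 6 pools were sought among genes that span at least 0.5 on the log2 scale. The 10 with the highest Pearson r over these 6 pools were Zfp423, Cnn1, Fabp7, Mt1, Akr1e1, Slc4a1, Igfbp2, Tnnc2, Alas2 and Mt2, with r from 0.972 to 0.899. As the best of 1031 genes these values are a description, and all 10 genes share the arrays and the high value of mutant pool 2. One of the 10, Tnnc2, is a sarcomere gene of striated muscle. Cnn1 is a smooth muscle gene, Slc4a1 and Alas2 are erythroid genes and Fabp7 is a gene of neural progenitors, with ratios of 1.336, 1.323, 1.321 and 1.529 in mutant pool 2. The metallothionein genes Mt1 and Mt2 were at 1.341 and 1.435 there.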

How the data were processed

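The table the authors deposited has 22690 probe sets and 6 pools, and its values read as linear ratios to a reference of each probe set: the median over the pools was below 1 in 1497 rows and at 1 in the others. Per the submitters' processing notes RMA and MAS5 were used, with no role or version given, and the scaling, the reference and a genome build are not given in the sources used here. The 64 control probe sets were left out. In the platform annotation 20380 probe sets had 1 gene symbol, 691 had several and 1555 had none, and 20351 of those with 1 matched the gene table (GRCm38.p6) by identifier.

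The log2 of the ratio was fitted in R 4.3.3 by limma 3.58.1 (eBayes after lmFit, with genotype as the only term, two-sided, p adjusted by Benjamini-Hochberg over all probe sets or all genes, threshold 0.05), a gene being the mean of its probe sets, and the code was tested on simulated data. The 9 members, the lists and the rules were chosen with earlier results of these data known. The text names the 9 members, the 3 genes of largest absolute difference in each list and the 10 genes most like the members. Myf5, Myod1, Myf6 and Mylpf were added after their values were seen. Alternatives were a replicate block, a variance trend, array weights, other scalings and probe set choices, a pseudocount of 0.1, the sex score as a covariate and each pool left out. The pools numbered alike were not treated as pairs. An exact permutation test of 3 pools against 3 has a smallest p of 0.1, and none was run. The precision of the differences is given by their SE and intervals, which rest on few arrays. Figures were drawn with matplotlib 3.10.9.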

Additional observations from a re-analysis of the deposited data

How the results depend on the processing

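Where limma called 0 probe sets with all pools (595 at an unadjusted p under 0.05), it called 1 with the replicate block (Uncx, adjusted p = 0.0379), 1 with array weights (Uncx, adjusted p = 0.0309) and 0 to 1 when a pool was left out (Xist, without wild-type replicate 1). An unadjusted p under 0.05 was reached by 1072 probe sets with the replicate block, by 1770 with array weights, by 267 with the sex score and by 319 to 1229 when a pool was left out, the lowest without wild-type replicate 2, the highest without wild-type replicate 3. It was reached by 1013 when mutant replicate 1 was left out. The deviations of same-numbered pools correlated at 0.368, -0.0249 and 0.37 across probe sets, which are not independent. Those of unlike-numbered pools ran from -0.427 (wild-type 3 with mutant 1) to 0.197 (wild-type 2 with mutant 1). Whether like-numbered pools were handled together cannot be told from these values. As each number has 1 pool per genotype, the block cannot change a difference. The count of members higher at 7 and their median at 0.205 were therefore fixed under it. With the sex score as a covariate 4 members were higher and their median was -0.049. With pools left out 6 to 8 members were higher and the median ran from 0.058 (without wild-type replicate 3) to 0.264, being 0.08 without mutant replicate 2. The members whose groups did not overlap numbered 2 to 4, the 4 without wild-type replicate 1 or mutant replicate 3, where the share of all genes was 15.5% and 14.5%. Acta1, Actc1, Tnnt1 and Tnnc1 were above 0 in all 16 alternatives, Tnni1 and Myl1 in 15, Myl4 in 9, and Des and Chrna1 in 1. No member passed the adjusted threshold in an alternative. Of the 144 member values under alternatives, 137 moved by less than the spread between pools. Leaving out a pool or adding the block could not move a value further than that, so this count does not show stability. With the sex score Actc1, Tnnt1, Tnni1, Myl1, Myl4 and Des moved further. Des also did so with the probe set of largest variance per gene. Except that fewer pools enter where one is left out, the cause was not tested. Among the alternatives, the centring of arrays in the comparison of pools was added after seeing the data.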
